A study of Drosophila melanogaster with 16 samples.

Results

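At 492 autosomal sites of the fly head genome a ROW peak was called that met no peak of WOC, HP1c, HP1b or H3K4me3. These sites were chosen by overlap of the deposited peaks. Peaks of ROW, WOC, HP1c and HP1b sharing at least 1 bp were merged into 7897 regions, and the 5880 regions on the arms 2L, 2R, 3L and 3R were kept. A region was a ROW-only site when it was made of ROW peaks alone, which gave 805 regions. Of these, 492 overlapped no H3K4me3 peak and 313 did. The 492 sites made up 12.3% (95% Wilson interval 11.3 to 13.3) of the 4005 autosomal regions that contained ROW. Each of them consisted of exactly 1 ROW peak. The rule left out another 176 unmarked ROW-only sites, 142 on the X chromosome, 11 on chromosome 4 and 23 on heterochromatin contigs. All coordinates are in the dm3 build, counted from 1.

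ROW (relative of WOC) and WOC (without children) are zinc-finger proteins that are known to form a chromatin complex with HP1c, a member of the heterochromatin protein 1 family found largely in euchromatin. HP1b is a second member of that family and is found in both euchromatin and heterochromatin. H3K4me3 is the histone mark laid down next to the start sites of transcribed genes.

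The chromatin came from whole heads of Drosophila melanogaster of 1 genotype, Actin-gal4/+ (W1118) control, a stock that carries the Actin-gal4 driver. The study immunoprecipitated it with 5 antibodies: ROW, WOC, HP1c and H3K4me3 have 3 libraries each, HP1b has 2, and 2 libraries used IgG. All 16 libraries share this genotype and tissue, and the labels give no age or sex. Heads hold neurons, glia, eye and other cells together, so a site bound in few cells and one bound weakly in many cannot be told apart. Each antibody has 1 peak list with its replicates combined, so no value below has a replicate error, and library depth is unknown. Sites are not replicates of an experiment. Shares and medians therefore carry 95% intervals for counting error over sites only, and no difference between classes of sites was tested.

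The share of ROW-only regions without the mark was near the background and is no result about them. The 492 sites were 61.1% (57.7 to 64.4) of the 805 autosomal ROW-only regions, and 62.7% of all 5880 autosomal regions overlapped no H3K4me3 peak. On these arms 3689 regions were unmarked in all. The other unmarked classes summarised were 402 regions with ROW and WOC alone, 180 with WOC alone, 1217 with HP1c or HP1b but neither ROW nor WOC, and 1038 in which ROW met HP1c or HP1b. Unmarked regions of WOC with HP1c or HP1b but no ROW were not summarised as a class and are counted only in the 3689. The 313 ROW-only regions with H3K4me3, the 402 with ROW and WOC and the 180 with WOC alone serve below as the classes most like the 492 sites.

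The sites occurred on all 4 arms in similar numbers. There were 127 on 2L, 107 on 2R, 127 on 3L and 131 on 3R, which is 5.52, 5.06, 5.18 and 4.70 sites per Mb between the outermost peaks of each arm. They made up 13.0% (11.0 to 15.2) of the ROW regions of 2L, 11.9% (9.93 to 14.2) on 2R, 12.2% (10.3 to 14.3) on 3L and 12.1% (10.3 to 14.2) on 3R. These intervals overlapped on all 4 arms. In windows of 1 Mb the number of sites ranged from 0 to 14 with a median of 5, and 2 of the 99 windows held none. Both empty windows are the last, partial windows of 2L and 2R. The fullest windows adjoin each other on 2L, with 14 sites from 19000001 to 20000000 and 11 from 20000001 to 21000000. They accounted for 25.0% of the 56 and of the 44 ROW regions there. The highest share was in another window, on 3R from 18000001 to 19000000, where 9 of 31 ROW regions (29.0%) were such sites.

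The unmarked ROW-only sites were narrow. No score or enrichment comes with the factor peaks, so a peak is described by its place and its width. The widths ran from 236 to 947 bp with a median of 301 bp (interval 292 to 308), a lower quartile of 263 bp and an upper quartile of 353 bp. The narrowest equals the narrowest peak of the whole ROW list, 236 bp. ROW peaks in ROW-only regions with H3K4me3 had a median width of 351 bp (342 to 359), those in unmarked regions with WOC 428 bp (414 to 442), and those in unmarked regions with HP1c or HP1b 389 bp (378 to 406). All 4022 autosomal ROW peaks had a median of 459 bp (447 to 466). WOC-only unmarked sites were about as narrow as the ROW-only ones, with a median of 284 bp (273 to 291). Unmarked regions with HP1c or HP1b but neither ROW nor WOC were also narrow, with a median of 315 bp (311 to 321).

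**Figure D1:**
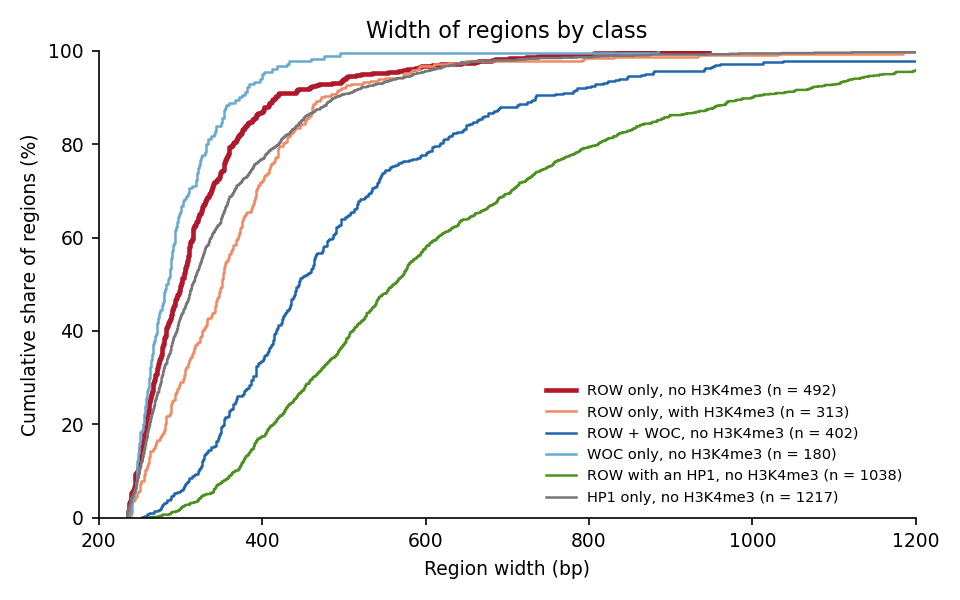
Cumulative share of regions (vertical axis, %) up to a given region width (horizontal axis, bp) in 6 classes of autosomal regions; lines end beyond 1200 bp for the few wider regions. The unmarked ROW-only sites (median 301 bp), the WOC-only sites (284 bp) and the HP1-only regions (315 bp) rise first. The ROW and WOC regions (445 bp) and the regions of ROW with an HP1 protein (561.5 bp) rise later. Regions merged from several peaks are wider in part by construction. The ROW peaks inside these last classes had medians of 428 and 389 bp.

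The share of ROW peaks that stood alone without the mark fell with width. When the autosomal ROW peaks were ordered by width and divided into 10 groups, 154 of the 403 narrowest (236 to 272 bp) were among the 492 sites, or 38.2% (33.6 to 43.0). Of those 354 to 401 bp wide 13.9% were (10.9 to 17.7), and of those 459 to 521 bp wide 3.47% (2.08 to 5.75). Of the 402 widest (834 to 2782 bp) only 2 were, or 0.498% (0.137 to 1.80). A wide peak meets another more easily, so part of this order follows from the rule. An alternative chosen after seeing the data set every peak of the 5 lists to 200 bp around its centre. ROW peaks without another factor or the mark then had a median deposited width of 316 bp (311 to 326, 804 peaks). Unmarked ROW peaks beside WOC alone measured 504 bp (492 to 512, 1117 peaks). Marked ROW peaks without another factor measured 359 bp (334 to 392, 107 peaks). Setting the mark to 200 bp also changes which sites count as unmarked, so these sets differ from those of the rule.

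**Figure D2:**
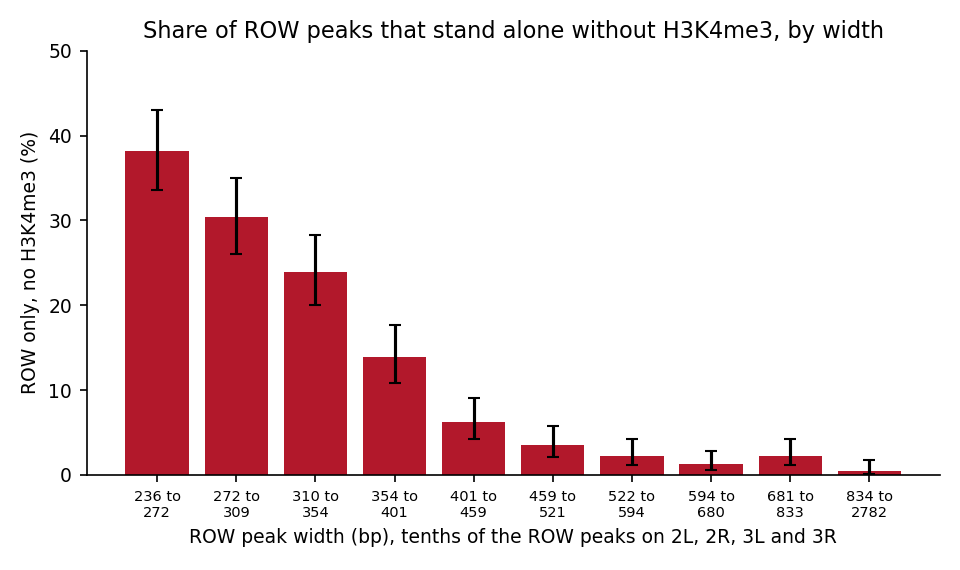
Share of autosomal ROW peaks that are ROW-only and without H3K4me3 (vertical axis, %) in 10 groups of near equal size by ROW peak width (horizontal axis, bp); bars are shares and error bars 95% Wilson intervals for counting error. The share goes from 38.2% in the narrowest group to 0.498% in the widest.

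Among the few wide sites, 2L held the largest number, but its interval overlapped those of the other arms. Of the 40 sites wider than 449.5 bp, the median of the whole ROW list, 17 were on 2L, 10 on 2R, 7 on 3L and 6 on 3R. The share on 2L, 42.5% (28.5 to 57.8), compares with 25.8% (23.9 to 27.7) of all 2060 autosomal ROW peaks of that width. The intervals of the other arms were 14.2 to 40.2% on 2R, 8.75 to 31.95% on 3L and 7.06 to 29.1% on 3R. The 5 widest sites were all on 2L. The widest lay at 540437 to 541383 (947 bp), 675 bp from an H3K4me3 peak and 1188 bp from a ROW and WOC region. The site at 2751445 to 2752278 (834 bp) lay 715 bp from an HP1c peak, and the site at 19021848 to 19022653 (806 bp) lay 5309 bp from the nearest mark. The site at 2800078 to 2800881 (804 bp) was 165 bp from the mark and 14070 bp from any WOC, HP1c or HP1b peak. The site at 7984457 to 7985252 (796 bp) was 37 bp from the mark and 31880 bp from any of those peaks. On the other arms the widest sites were at 432140 to 432862 on 2R (723 bp), 18753006 to 18753743 on 3L (738 bp) and 3470031 to 3470732 on 3R (702 bp). One of the 236 bp sites on each arm is at 16534561 to 16534796 on 2L, 7180978 to 7181213 on 2R, 58310 to 58545 on 3L and 5088174 to 5088409 on 3R.

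Many of the sites stood close to H3K4me3 without touching it. From the centre of a site to the nearest H3K4me3 summit the median distance was 2911.5 bp (2442 to 3805), with quartiles of 1056 and 10260 bp and a range of 273 to 210763 bp. A summit lay within 1 kb at 118 of the 492 sites, or 24.0% (20.4 to 27.9), against 43.9% of all autosomal regions, the marked ones included, and 12.0% of the unmarked ones. Another 36.4% (32.3 to 40.7) lay 1 to 5 kb away, 13.8% (11.1 to 17.2) 5 to 10 kb away and 25.8% (22.1 to 29.9) beyond 10 kb. The rule fixed that no site touches the mark, and it did not fix how far away the mark is. The distances formed a broad spread with no gap between near and distant sites.

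Unmarked sites with ROW and no HP1 protein lay nearer to the mark than the other 3 unmarked classes summarised here. The median distance was 2633.5 bp (1962 to 3361) for ROW and WOC regions, close to that of the ROW-only sites. It was 9019.5 bp (7352 to 12922) for WOC alone, 8897 bp (7851 to 10243) for ROW with HP1c or HP1b and 12331 bp (11273 to 13541) for HP1c or HP1b without ROW or WOC. A summit within 1 kb was found at 30.6% (26.3 to 35.3) of ROW and WOC regions, 18 of the 180 WOC-only sites (6.42 to 15.3%), 11.8% (9.93 to 13.9) of ROW regions with an HP1 protein and 4.52% (3.49 to 5.84) of HP1-only regions. The interval of the ROW-only sites overlapped that of the ROW and WOC regions and none of the other 3. Measured from edge to edge, the medians were 2358.5 bp for the ROW-only sites, 1834.5 bp for ROW and WOC regions and 8633 bp for WOC alone.

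**Figure D3:**
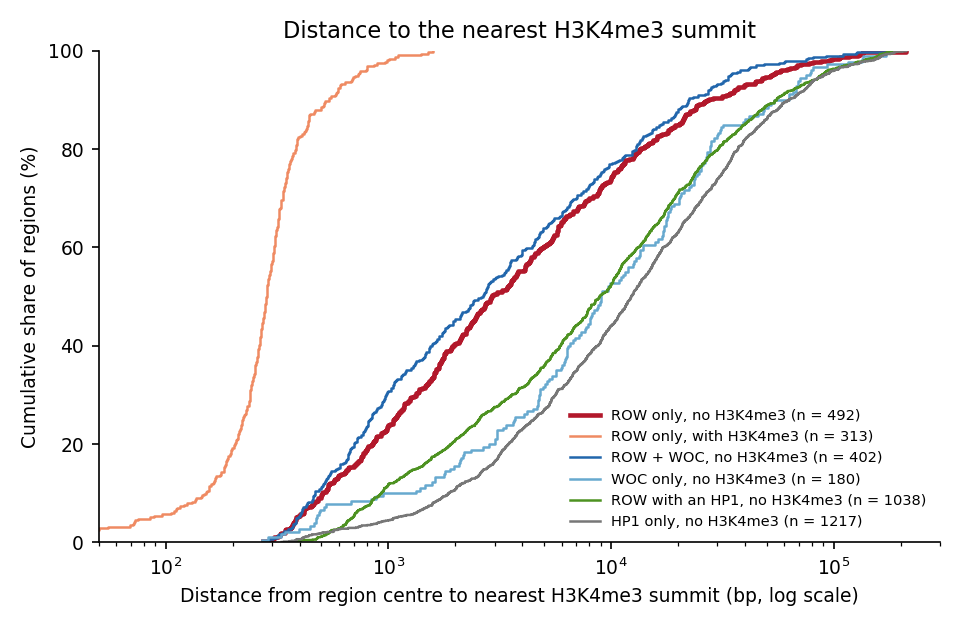
Cumulative share of regions (vertical axis, %) against the distance from the region centre to the nearest H3K4me3 summit (horizontal axis, bp, log scale) in 6 classes of autosomal regions. The unmarked ROW-only sites (median 2911.5 bp) run beside the unmarked ROW and WOC regions (2633.5 bp), and the WOC-only (9019.5 bp) and HP1 classes lie to the right; the marked class overlaps the mark by definition.

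The distance was compared between arms. On 2R the median was 1913 bp (1458 to 2789), against 3405 bp (2261 to 5376) on 2L, 4124 bp (2327 to 6116) on 3L and 4132 bp (2068 to 5771) on 3R. The interval of 2R overlapped those of the other 3 arms. Over all unmarked autosomal regions 2R also had the lowest median, 6469.5 bp (5664 to 7823), against 7850 bp (6764 to 9031) on 2L, 10178 bp (9137 to 11193) on 3L and 8833 bp (7830 to 10248) on 3R. Among the ROW-only sites the upper quartile was 4865 bp on 2R and between 11150 and 11511 bp on the other arms. Of the 127 sites beyond 10 kb 16 were on 2R, or 12.6% (7.91 to 19.5), and 2R held 21.7% (18.3 to 25.6) of all the sites, so the intervals overlapped. Over the 492 sites Spearman's rho between width and distance to the mark was -0.038, and the median width lay between 282.5 and 308.5 bp in each of 8 bands of distance.

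A small number of the sites lay between a pair of H3K4me3 peaks. In 15 of the 492, or 3.05% (1.86 to 4.97), an H3K4me3 peak ended within 1 kb on each side, and 155 others had the mark within 1 kb on 1 side. The pairs were separated by 298 to 1747 bp with a median of 632 bp, and the ROW peaks inside them were 237 to 416 bp wide. The narrowest interval, 298 bp on 3L, held the site at 17469031 to 17469268, so that ROW filled most of the unmarked gap. The 3 sites nearest to the mark were of this kind. The site on 3L at 16595801 to 16596147 lay 4 and 41 bp from its H3K4me3 neighbours, the site on 3R at 23100175 to 23100457 lay 5 and 121 bp away, and the site on 3R at 27637963 to 27638229 lay 5 and 90 bp away. The share was 3.98% (2.46 to 6.37) for unmarked ROW and WOC regions, 2.78% (1.19 to 6.34) for WOC alone, 1.45% (0.878 to 2.37) for ROW with HP1c or HP1b, 0.164% (0.0451 to 0.597) for HP1-only regions and 1.44% (1.10 to 1.87) for all unmarked regions. The interval of the ROW-only sites overlapped those of the ROW and WOC, WOC-only and ROW with HP1 classes and, by a small margin, that of all unmarked regions.

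The H3K4me3 peaks beside these sites were close in height and width to the H3K4me3 peaks without a factor. The 168 H3K4me3 peaks within 1 kb of a site had a median enrichment of 3.39-fold by the authors' own values, against 3.26 for the 2016 autosomal H3K4me3 peaks that no factor peak overlapped and 3.85 for all 4488. Their median width was 593 bp, against 596 and 651 bp. Of the 168 peaks, 139 are themselves among the 2016, so part of this closeness is built in. The nearest H3K4me3 peak within 1 kb had a median fold of 3.13 beside unmarked ROW and WOC regions and 3.57 beside WOC alone, and was below both beside ROW with HP1c or HP1b. H3K4me3 peaks overlapped by a ROW-only region had a median fold of 4.26 and a width of 748 bp, and a wide peak is more easily overlapped. No factor peak of the 4 lists overlapped 139 of the 168, or 82.7% (76.3 to 87.7). Beside unmarked ROW and WOC regions the same held for 77.3% (70.3 to 83.1) of 163 H3K4me3 peaks. Both shares are tied to the rule, since a peak with a factor of its own is more often counted as a marked region. Over all 4488 autosomal H3K4me3 peaks, a factor peak overlapped 55.1% (53.6 to 56.5), and 2016 had none. The 139 peaks were 6.89% (5.87 to 8.08) of the 2016 without a factor. The summit of the mark lay nearer to the edge that faces the site than to the far edge at 64.7% (57.3 to 71.5) of the 170 sites within 1 kb of a mark, at 65.5% (57.9 to 72.3) of ROW and WOC regions and at 63.0% (52.8 to 72.2) of HP1-only regions.

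The other factors were usually several kb away. The median gap from the edge of a site to the nearest WOC, HP1c or HP1b peak was 4264.5 bp (3510 to 5139), with quartiles of 1361.5 and 10410 bp. Only 4 of the 492 sites had such a peak within 200 bp, or 0.813% (0.317 to 2.07), all of them HP1c. Within 1 kb there were 80 sites, or 16.3% (13.3 to 19.8), and beyond 10 kb 128 sites, or 26.0% (22.3 to 30.1). For ROW-only regions with the mark the median gap was 3104 bp (2748 to 3388), and 14.4% (10.9 to 18.7) had another factor within 1 kb. WOC was the nearest of the 3 at 278 sites (56.5%, 52.1 to 60.8), HP1c at 149 (30.3%, 26.4 to 34.5) and HP1b at 65 (13.2%, 10.5 to 16.5). This is also the order of the number of autosomal peaks in each list, 3600 for WOC, 3082 for HP1c and 1720 for HP1b.

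Sites near the mark and sites far from it had different neighbours. Among the 118 sites within 1 kb of a summit, the nearest other region was ROW and WOC alone at 39, or 33.1% (25.2 to 42.0), and contained HP1c or HP1b at 48, or 40.7% (32.2 to 49.7). Among the 127 sites beyond 10 kb, ROW and WOC alone was nearest at 19, or 15.0% (9.79 to 22.2), and a region with HP1c or HP1b at 85, or 66.9% (58.4 to 74.5). Neither pair of intervals overlapped. This split was not made for other unmarked regions, and whether it is particular to these sites was not tested. Of unmarked HP1-only regions 56.0% (53.2 to 58.8) themselves lay beyond 10 kb from a summit, against 23.1% (19.3 to 27.5) of ROW and WOC regions. Over all 492 sites the nearest region contained an HP1 protein at 49.6% (45.2 to 54.0). This was close to the 49.0% (44.2 to 53.9) of unmarked ROW and WOC regions. It was 66.7% (59.5 to 73.1) for WOC alone, 64.6% (63.0 to 66.1) for all unmarked autosomal regions and 39.9% (34.7 to 45.5) for ROW-only regions with the mark. The share with another factor within 1 kb was 14.4% (9.19 to 21.9) near the mark and 15.0% (9.79 to 22.2) far from it. At some sites the nearest mark and the nearest other factor were in the same place. The nearest WOC, HP1c or HP1b peak overlapped the nearest H3K4me3 peak at 55 of the 179 sites with a summit 1 to 5 kb away, or 30.7% (24.4 to 37.8), and at 14 of the 68 sites at 5 to 10 kb, or 20.6% (12.7 to 31.6). It did so at 4 of the 118 sites within 1 kb, or 3.39% (1.33 to 8.39), and at 10 of the 127 sites beyond 10 kb, or 7.87% (4.33 to 13.9). Within 1 kb the other factors were mostly far while the mark was near, and the rule itself keeps other factors off the site. These shares were not computed for other classes. Of all 4488 autosomal H3K4me3 peaks, a peak of any factor, ROW included, overlapped 55.1% (53.6 to 56.5). Over all 492 sites the distance to the mark and the gap to the other factors had a Spearman's rho of 0.14. The points share the same arms and peak lists.

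**Figure D4:**
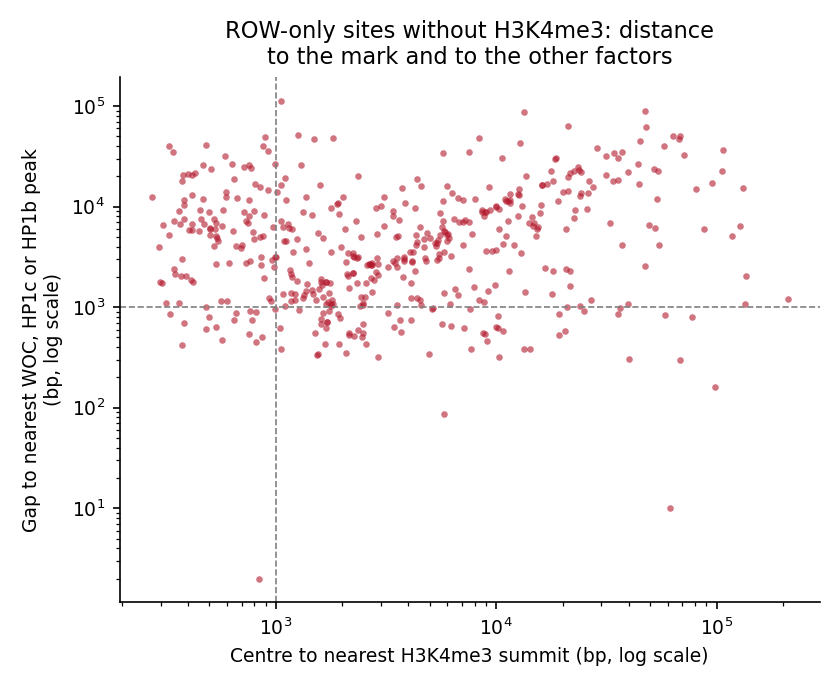
Each point is 1 of the 492 unmarked ROW-only sites, placed by its distance to the nearest H3K4me3 summit (horizontal axis, bp, log scale) and its gap to the nearest WOC, HP1c or HP1b peak (vertical axis, bp, log scale). Dashed lines mark 1 kb; 118 sites lie left of the vertical line and 80 below the horizontal one, and right of 1 kb a band of points runs along the diagonal, where at 55 of the 179 sites 1 to 5 kb away the nearest factor peak overlaps the nearest mark.

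Most sites were single. The next ROW peak of any kind was a median of 4768.5 bp away (3791 to 5502). The nearest other region was ROW alone at 90 sites, or 18.3% (15.1 to 22.0). This share was 18.5% (14.6 to 23.2) for marked ROW-only regions and 23.1% (19.3 to 27.5) for unmarked ROW and WOC regions. It was 10.6% (6.86 to 15.9) for WOC alone and 12.8% (11.7 to 13.9) for all unmarked regions. Another of the 492 sites lay within 5 kb at 69 sites, or 14.0% (11.2 to 17.4). Measured within each class in the same way, the share was 12.7% (9.78 to 16.3) for the 402 unmarked ROW and WOC regions, 10.5% (7.61 to 14.4) for the 313 marked ROW-only regions and 2.22% (0.867 to 5.57) for the 180 WOC-only sites, and a class with more regions has more chances of a near neighbour. Over all 3689 unmarked regions it was 47.7% (46.1 to 49.3). The 69 sites formed 30 pairs and 3 runs of 3 sites. Of these 33 runs, 25 had no other factor region between their sites and 28 no H3K4me3 peak. The runs of 3 were at 6204633 to 6213750 on 3R, with no other region or mark inside, at 2040565 to 2047313 on 2R, with 1 of each inside, and at 17605839 to 17608083 on 3L, where the 3 sites fell within 2245 bp and the mark was 4156 to 6116 bp away. No arm 2L run had more than 2 sites, the first of them at 18682 to 21700.

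Some sites were isolated from all the peaks. At 61 sites, or 12.4% (9.77 to 15.6), the nearest H3K4me3 summit, the nearest peak of another factor and the next ROW peak were each over 10 kb away. The same count was not made for other classes. As a group the sites were not more isolated than other regions. Their nearest region of any factor was a median of 3125 bp away (2744 to 3951). For all autosomal regions it was 3223 bp (3088 to 3341), and for all unmarked ones 3623 bp (3408 to 3881). The site farthest from any other factor peak was on 2R at 13152664 to 13152922, 259 bp wide, with 113224 bp to the nearest WOC peak and 147069 bp to the next ROW peak, yet only 256 bp from an H3K4me3 peak. The next were on 2L at 1884288 to 1884543, with 89244 bp to the nearest WOC, HP1c or HP1b peak, 89210 bp to the next ROW peak and 46869 bp to the mark, and on 3R at 26981925 to 26982189, with 63307, 63210 and 20864 bp. The 3 sites farthest from a summit were all near the proximal end of 3L, at 24319914 to 24320188 (210763 bp), 23572269 to 23572567 (136038 bp) and 23573951 to 23574210 (134375 bp). Their nearest HP1c or HP1b peaks were 1208, 2026 and 1082 bp away.

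At the proximal ends of the arms, next to the centromeres, the sites were about as frequent as by length, and most other unmarked classes were more frequent. Within 2 Mb of the proximal end lay 32 of the 492, or 6.50% (4.64 to 9.04), and these stretches make up 8.28% of the extent of the arms. The share was 4.47% (2.68 to 7.37) for ROW-only regions with the mark, 10.9% (8.26 to 14.4) for unmarked ROW and WOC regions, 15.0% (10.5 to 20.9) for WOC alone and 15.4% (13.5 to 17.6) for HP1-only regions. It was 21.2% (18.8 to 23.8) for unmarked regions of ROW with HP1c or HP1b and 15.7% (14.6 to 17.0) for all unmarked autosomal regions. The interval of the ROW-only sites overlapped only those of the marked ROW-only and the unmarked ROW and WOC regions. Of the sites over 10 kb from a summit, 7.09% (3.77 to 12.9) lay there.

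**Figure D5:**
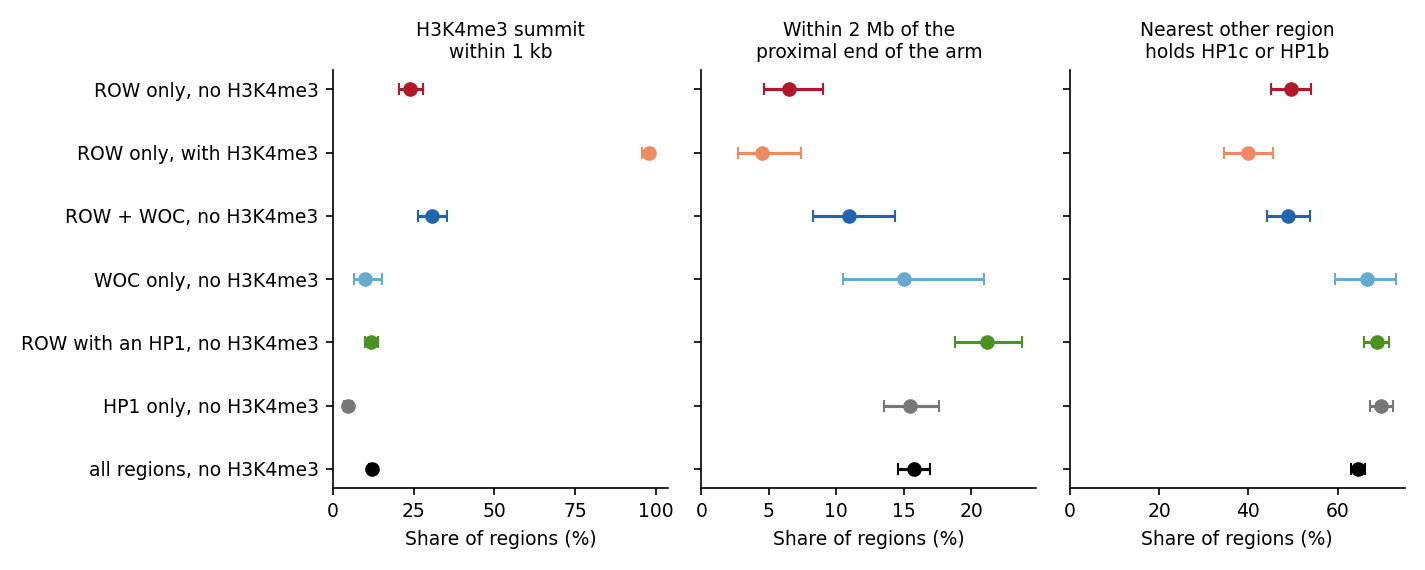
Share of regions (horizontal axes, %) with an H3K4me3 summit within 1 kb of the centre, within 2 Mb of the proximal end of the arm, and with HP1c or HP1b in the nearest other region, for 7 classes of autosomal regions (rows); points are shares and bars 95% Wilson intervals for counting error. The unmarked ROW-only sites stand at 24.0%, 6.50% and 49.6%; their first value is below that of the marked class, which overlaps the mark by definition, and their second is near that class.

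The rule cuts a continuous range. Inside it, the sites nearest to the mark were 4, 5 and 5 bp from it, and outside it the ROW-only regions on 2R at 3397779 to 3398197, 6707172 to 6707471 and 20829866 to 20830255 overlapped the mark by 3, 5 and 9 bp. The sites nearest to another factor were on 3R at 22361631 to 22361988, 2 bp from an HP1c peak, on 3R at 11373499 to 11373740, 10 bp from one, and on 2L at 16526674 to 16526951, 86 bp from one. Just outside the rule were unmarked regions whose ROW peak overlapped HP1c by 4 bp on 2R (7254914 to 7255682) and HP1b by 10 bp on 2L (8952875 to 8953441) and by 21 bp on 3L (5160310 to 5160917).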

How the data were processed

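ChIP-seq peaks of ROW, WOC, HP1c, HP1b and H3K4me3 from fly heads were analysed as 1 deposited list per antibody. The submitters' processing notes name dm3, Bowtie2, SAMtools, MACS2 and deepTools, with no versions or roles. The factor lists hold positions only, so no score or q-value threshold could be varied there. In the H3K4me3 list the authors deposited the fold enrichment at the summit, a ratio, and the −log10 q-value, and its peak names point to MACS2 against IgG. The sources used here do not say how replicates were combined. Depth is unknown, so a site without a peak is one where the authors called none.

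Regions, distances and shares were computed with Python 3.11.15, NumPy 2.4.6, pandas 2.3.3 and SciPy 1.17.1, and plotted with matplotlib 3.10.9. Gaps run from edge to edge and summit distances from the region centre. Shares carry 95% Wilson intervals, medians the order statistics with 95% binomial coverage. Merging and distances were checked on simulated lists. Sites were named as the extremes of width, distance and run length, with ties broken by arm and start. The second fullest window, the window of highest share, the empty windows and the narrowest gap between marks were named after their values were seen. Members, classes and measures were chosen with earlier results of these data known. The distance bands on neighbours, the wide sites by arm, the factors on H3K4me3 peaks beside the sites and the overlap of nearest factor and nearest mark were added after seeing the data. No dm3 genome or annotation was used here, so genes, sequences and motifs were not analysed.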

Additional observations from a re-analysis of the deposited data

How the results depend on the processing

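Of 86 alternative values, 62 stayed within the interval of the value reported (counts: within 1.5 times) and 24 did not. Merging over gaps of 200 or 500 bp and an overlap of 0.5 of the shorter peak moved none. With no H3K4me3 within 500 bp the median summit distance was 5477 bp and the share within 5 kb of another site 11.0%. With none within 1000 bp, 322 sites remained, 18.3% on 2R, at 6751 bp. With H3K4me3 peaks above the median −log10 q alone as the exclusion, 578 sites qualified and the distance was 2096 bp, and to summits of those peaks alone it was 9764.5 bp. The first pair removes the sites nearest to the mark, the next adds sites that overlap a weaker mark, and the last removes summits. With ROW peaks wider than the median, 40 sites were left, of median width 575 bp, with 42.5% on 2L, 17.5% on 3L and 15.0% on 3R, 3964.5 bp from a summit, 2812.5 bp from another factor and 5% within 5 kb of another site. With all peaks set to 200 bp, chosen after seeing the data, there were 804 sites of median width 316 bp, 1249.5 bp from a summit and 2936.5 bp from another factor, 18.7% within 5 kb of another. Clusters of 2 and 10 kb gave 7.11% and 20.5%, proximal distances of 1 and 3 Mb 3.05% and 11.2%. No paired analysis was possible because a single list per antibody stands for all its replicates, which also prevents leaving out any of them. The motif alternative was not run.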
